A study of Homo sapiens with 9 samples.

Results

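Osmolyte transporters, the osmotic transcription factor NFAT5 and a volume-regulated anion channel subunit were followed in HT1080 cells, an established human fibrosarcoma line, plated on thick gels of fibrillar collagen. The genes were SLC5A3, SLC6A6, SLC6A12, AKR1B1, NFAT5 and LRRC8A, and every probe set that the platform annotation assigned to 1 of them alone was taken and kept apart. This gave 15 of 54613 probe sets: 4 for SLC5A3, 5 for SLC6A6, 1 for SLC6A12, 3 for NFAT5 and 2 for LRRC8A. The annotation used here named none for AKR1B1, aldose reductase, which was not analysed here. The genes were chosen by function with the treatment differences of these arrays already known, so their levels and differences are a description and carry no test.

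Cells had been seeded in 10% serum on collagen of 1.7 mg/ml polymerized for 4 h, and had adhered for 24 h before treatment. The groups were cells described as untreated, which their titles call vehicle, and cells given a protease inhibitor mix for 4 h or for 24 h, with 3 arrays each. The mix held GM6001 at 100 µM, pepstatin A at 50 µM, E64 at 250 µM, and aprotinin and leupeptin at 2 µM each; GM6001 inhibits matrix metalloproteinases, and the others inhibit aspartic, cysteine and serine proteases. The sources used here do not say what the vehicle was or when untreated cells were harvested. Some labels and the design text speak of a kinase inhibitor cocktail, but the compounds that the protocol lists inhibit proteases. Values are deposited intensities on a linear scale, and differences are on the log2(intensity + 16) scale, which understates the change of dim probe sets.

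Animal cells that lose water in a hypertonic medium first take up salts and then replace them with organic osmolytes, small neutral solutes such as myo-inositol, taurine, betaine and sorbitol. NFAT5, also called TonEBP, is the transcription factor that raises the genes for this uptake and synthesis, among them SLC5A3, SLC6A6, SLC6A12 and AKR1B1. In swollen cells osmolytes leave again through the volume-regulated anion channel, of which LRRC8A is the obligatory subunit. These genes are best known from the kidney medulla, though NFAT5, SLC5A3, SLC6A6 and LRRC8A are expressed in many tissues.

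SLC5A3 lies within the transcription unit of MRPS6, which encodes a mitochondrial ribosomal protein, and RefSeq gives both genes the same start. The sequence before that start is shown because the annotation lets transcripts of the 2 genes begin at 1 place. Where they began in these cells was not measured. It is the 250 bases of RefSeq (GRCh38.p14) at chr21:34073328-34073577, plus strand, and capitals mark GGGCGG, the core of a GC box, on either strand.
SLC5A3 and MRPS6: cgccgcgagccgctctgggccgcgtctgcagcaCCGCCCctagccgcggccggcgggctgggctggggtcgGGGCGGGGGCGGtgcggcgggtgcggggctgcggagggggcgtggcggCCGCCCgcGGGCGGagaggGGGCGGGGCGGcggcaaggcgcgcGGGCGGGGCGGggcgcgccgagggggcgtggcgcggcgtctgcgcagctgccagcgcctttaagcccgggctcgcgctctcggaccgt
The stretch holds 7 matches on the plus strand and 2 on the minus strand, some of which share a base, and 84.8% of it is G or C, against a median of 58.7% over all 35116 windows of 300 bases in the table. GGGCGG occurs on either strand in 45.0% of those windows. The letters TGGAAA, the core of the tonicity element that NFAT5 binds, occur on either strand in 20.7% of them and in none of the 5 windows listed for SLC5A3, LRRC8A and AKR1B1. A match or its absence describes these letters in these windows only.

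The arrays differed in ways that moved with treatment. Poly-A spike transcripts, bacterial RNAs added during preparation, had a mean log2 value of 9.45 ± 0.08 untreated, 10.32 ± 0.21 at 4 h and 10.74 ± 0.04 at 24 h (SD, n = 3; exact two-sided permutation p = 0.1 for each against untreated, the lowest value possible with 3 arrays a group). For ACTB the 5′ probe set's signal over the 3′ one's was 0.893 ± 0.034, 0.723 ± 0.132 and 0.697 ± 0.038 (exact permutation p = 0.2 and 0.1 against untreated). For GAPDH the same ratio went the other way, at 1.049 ± 0.00077, 1.074 ± 0.029 and 1.079 ± 0.018 (exact permutation p = 0.3 and 0.1). Replicate 2 of the 4 h group stood apart from the other treated arrays, with an ACTB ratio of 0.871 and a first principal component of -17.6, where the other 5 treated arrays lay between 15.3 and 30.2 and the untreated ones between -42.8 and -28.7. The part of these differences in the results was not tested. Of 8 mesenchymal markers of the line 7 had a mean intensity over 100. Among the markers of other cell types, 7 of 8 epithelial, all 6 measured leukocyte and 6 of 8 endothelial genes had a mean under 16, and the exception above 100 was KRT18. The summed endothelial markers were 55.1 to 76.5 untreated, 102.8 to 139 at 4 h and 109 to 154.2 at 24 h, with PECAM1 at 26.5, 35.0 and 51.1, and their part was not tested either.

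SLC5A3 encodes SMIT1, which carries myo-inositol into the cell with sodium, and its brightest probe set read higher after inhibitor treatment at both times. That probe set, 213164_at, gave 390.6, 387.2 and 336.5 on the untreated arrays, 598.7, 496.6 and 738 at 4 h, and 628.7, 761.4 and 757.1 at 24 h. All 6 treated arrays lay above all untreated ones, and the lowest of them was replicate 2 at 4 h. The means were 371 ± 30, 611 ± 121 and 716 ± 75 (SD, n = 3), so that the level was 1.60-fold higher at 4 h (log2 difference 0.68 ± 0.16 SE) and 1.89-fold higher at 24 h (0.92 ± 0.16 SE). Between 4 h and 24 h the arrays overlapped, with a difference of 0.24 ± 0.16 SE. In such bulk samples, more RNA per cell and more cells with the transcript cannot be told apart. Without replicate 2 at 4 h the 4 h difference was 0.82 and that between the times 0.10.

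A second probe set of SLC5A3, 212944_at, ran alongside the first with smaller steps. It read 202.2, 198.9 and 176.8 untreated, 230.9, 196.8 and 280.3 at 4 h, and 223.4, 258.3 and 256.1 at 24 h. The 24 h arrays lay above all untreated ones, whereas replicate 2 at 4 h lay among the untreated values. Its differences were 0.26 ± 0.15 SE at 4 h and 0.33 ± 0.15 SE at 24 h, and its Pearson correlation with 213164_at was 0.93 over the 9 arrays, which share scaling and treatment.

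The remaining pair of SLC5A3 probe sets was dim. Probe set 1553313_s_at read 27.7, 4.3 and 20.2 untreated, between 25.9 and 36.1 at 4 h and between 26.8 and 33.9 at 24 h, with overlap in both comparisons. Probe set 213167_s_at had the opposite sign, with means of 17.1 ± 6.2 untreated, 13.2 ± 4.2 at 4 h and 11.1 ± 5.5 at 24 h. Averaged over its 4 probe sets, SLC5A3 differed from untreated by 0.33 ± 0.12 SE at 4 h and 0.37 ± 0.12 SE at 24 h, where the brightest alone gave 0.68 and 0.92.

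MRPS6, the host gene of SLC5A3, overlapped between treated and untreated arrays. Its probe set, 224919_at, averaged 1132 ± 99 untreated, 1023 ± 57 at 4 h and 1188 ± 59 at 24 h; its 24 h arrays, at 1255, 1162.1 and 1146.3, lay above its 4 h arrays, at 1041.7, 959 and 1067.5 (0.21 ± 0.12 SE, limma adjusted p = 0.643). The log2 differences from untreated were -0.14 ± 0.12 SE at 4 h (limma adjusted p = 0.737) and 0.07 ± 0.12 SE at 24 h (limma adjusted p = 0.872). The correlation of MRPS6 with 213164_at over the 9 arrays was 0.035.

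**Figure D1:**
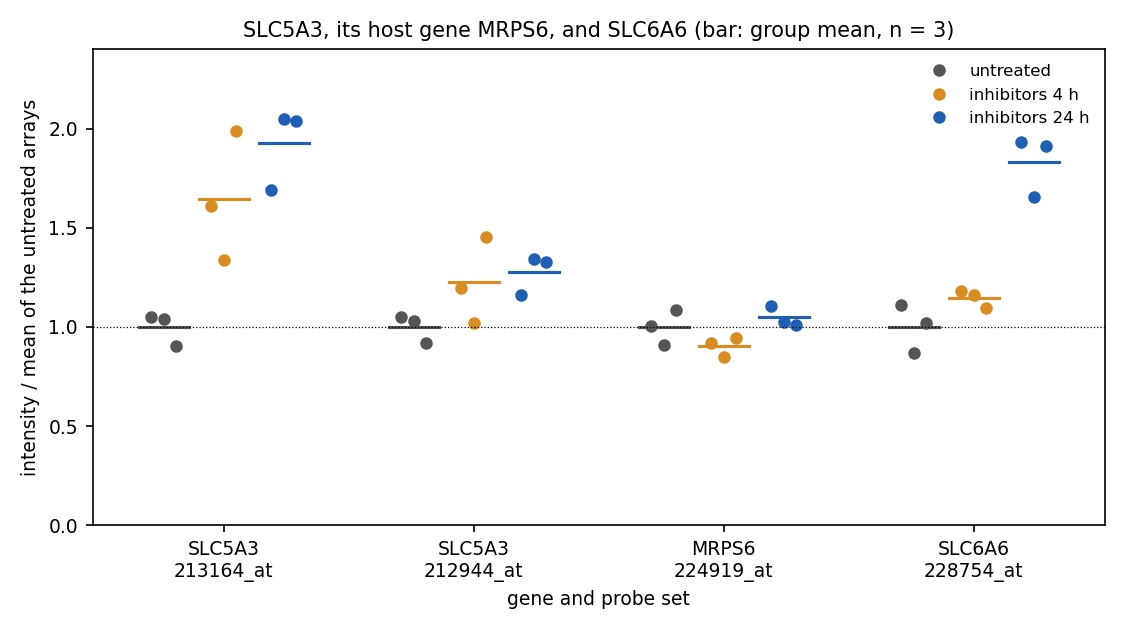
Intensity of 4 probe sets on each array (points, 3 per group) divided by the mean of that probe set's own untreated arrays, with bars for the group means; the vertical axis starts at 0. SLC5A3 213164_at was 1.60-fold higher at 4 h and 1.89-fold at 24 h on the log2(intensity + 16) scale, SLC6A6 228754_at lay above the untreated arrays at 24 h without overlap, and MRPS6 overlapped with untreated at both times. The plotted ratios are of intensities without the added 16 and so differ slightly from these folds.

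SLC6A6 encodes TauT, the sodium- and chloride-coupled taurine transporter, and its bright probe set was higher at 24 h with little difference at 4 h. Probe set 228754_at read 633.4, 497.3 and 583.5 untreated, 673.8, 662.2 and 624.8 at 4 h, and 1103, 945.8 and 1092.1 at 24 h. The 24 h arrays lay above all 6 others, while the 4 h and untreated arrays overlapped. The means were 571 ± 69, 654 ± 26 and 1047 ± 88 (SD, n = 3), which put the 24 h level 1.81-fold above untreated (log2 difference 0.86 ± 0.13 SE) and 1.58-fold above 4 h (0.66 ± 0.13 SE). The 4 h difference from untreated was 0.20 ± 0.13 SE.

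The other 4 probe sets of SLC6A6 were far dimmer and did not separate the groups in any comparison. Probe set 205920_at averaged 51.5 ± 23.7, 49.8 ± 10.4 and 57.7 ± 12.3 in the untreated, 4 h and 24 h groups. For 205921_s_at the means were 29.7 ± 11.5, 23.4 ± 21.1 and 40.2 ± 10.2, and without replicate 2 at 4 h its 4 h difference moved from -0.31 to -0.72. Probe sets 211030_s_at and 228756_at averaged 15.1 and 8.76 over all arrays, under the pseudocount of 16. At 24 h all 5 probe sets had a positive difference from untreated, from 0.15 for 211030_s_at to 0.86 for 228754_at, and their average was 0.34 ± 0.14 SE. None of the 4 correlated with 228754_at above 0.34 over the 9 arrays.

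SLC6A12 encodes BGT1, which carries betaine and GABA, and its probe set 206058_at was near background throughout. It read 9.8, 1.9 and 1.5 untreated, 0.9, 4.7 and 1.3 at 4 h, and 21.2, 17.7 and 6.5 at 24 h. The 24 h arrays lay above the 4 h ones, and replicate 3 at 24 h lay below the highest untreated array. The differences at 24 h were 0.60 ± 0.22 SE from untreated and 0.74 ± 0.22 SE from 4 h, and at 4 h -0.14 ± 0.22 SE. These values follow the pseudocount: the 24 h difference from untreated was 1.77 with 1 and 0.21 with 64, that from 4 h 2.32 and 0.25, and that at 4 h -0.55 and -0.043. Of the 9 readings 7 were below 10, and with no detection calls at hand they cannot be told from background.

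**Figure D2:**
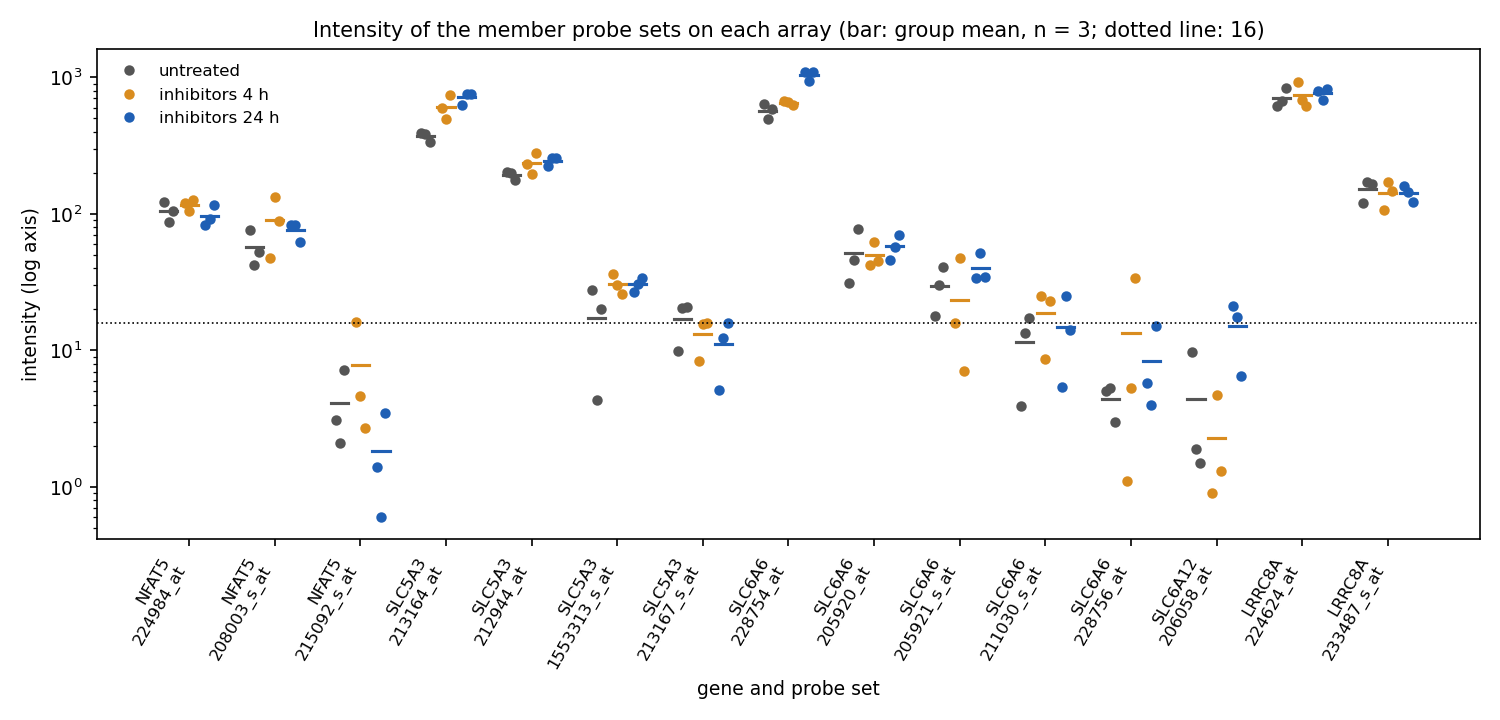
Intensity of the 15 probe sets on each of the 9 arrays (points) on a log axis, with bars for the group means (n = 3) and a dotted line at the pseudocount of 16; levels of different probe sets are not comparable. SLC5A3 213164_at had its 6 treated arrays above the untreated ones and SLC6A6 228754_at had its 24 h arrays above the other 6, while 5 probe sets had a mean below 16.

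The transcript of NFAT5 itself showed no separation between groups on any probe set. Probe set 224984_at read 121.2, 86.7 and 105.5 untreated, 119.5, 104.4 and 125.3 at 4 h, and 83.1, 92.1 and 115.9 at 24 h. The ranges of the 3 groups overlapped, with differences of 0.14 ± 0.16 SE at 4 h and -0.09 ± 0.16 SE at 24 h. Probe set 208003_s_at read 76.6, 42 and 52.3 untreated, 47.5, 133.4 and 88.2 at 4 h, and 82.7, 83.3 and 62.1 at 24 h. Its 4 h difference of 0.48 ± 0.29 SE was 0.18 without replicate 2 at 4 h and 0.80 without replicate 1 at 4 h. At 24 h it differed from untreated by 0.35 ± 0.29 SE. Probe set 215092_s_at read under 17 on every array and averaged 4.6. Every NFAT5 probe set had a positive difference from untreated at 4 h. Averaged over its probe sets, NFAT5 differed from untreated by 0.28 ± 0.12 SE at 4 h and 0.03 ± 0.12 SE at 24 h. The same average for SLC5A3 at 4 h was 0.33 ± 0.12 SE. The correlation between 224984_at and 208003_s_at over the 9 arrays was 0.044. NFAT5 activity is regulated by nuclear import and transactivation as well as by transcript level, and only the transcript was measured.

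LRRC8A, the obligatory subunit of the volume-regulated anion channel, gave overlapping values in all 3 groups. Probe set 224624_at read 620.8, 675.7 and 837 untreated, 924.2, 682.7 and 620.7 at 4 h, and 788.1, 679.1 and 823.7 at 24 h. Its spread within the 4 h group exceeded the distance between any 2 group means, and its differences were 0.05 ± 0.18 SE and 0.11 ± 0.18 SE from untreated. Probe set 233487_s_at averaged 153 ± 28, 142 ± 33 and 142 ± 19, with differences of -0.10 ± 0.19 SE and -0.09 ± 0.19 SE.

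**Figure D3:**
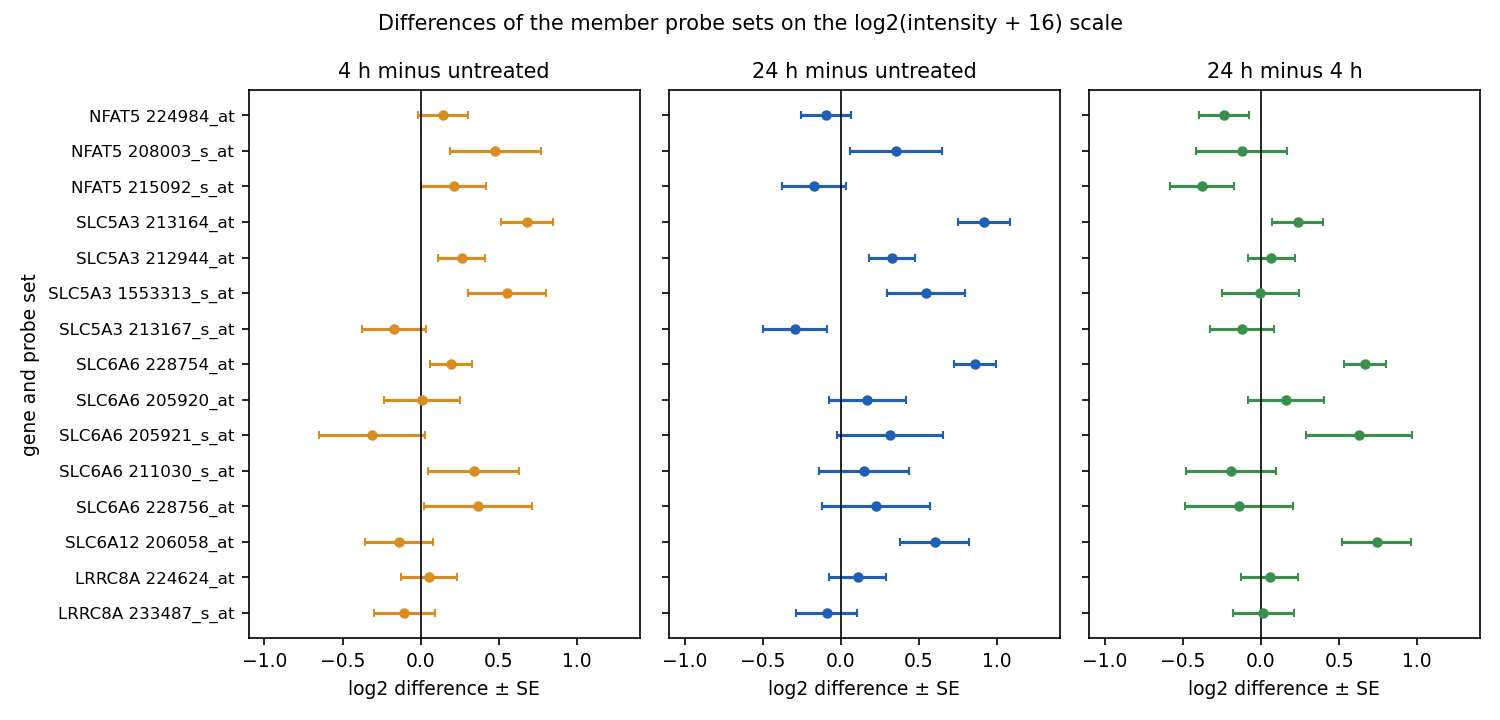
Log2 differences of the 15 probe sets (points) with their standard errors from the fit over all arrays (bars), for 4 h minus untreated, 24 h minus untreated and 24 h minus 4 h. At 24 h SLC5A3 213164_at (0.92) and SLC6A6 228754_at (0.86) lay farthest above 0, and between the times SLC6A6 228754_at lay at 0.66; SLC6A12 206058_at (0.74 there) is near background and its place follows the pseudocount.

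With limma fitted on all probe sets, none of the 15 passed an adjusted p of 0.05 at 4 h, at 24 h or between the times, where 0.0128%, 0.0531% and 0.0256% of all probe sets did. By direction, 0.0165% of all probe sets were called higher and 0.0366% lower at 24 h, and 0.00549% and 0.0201% between the times, while those called at 4 h were all higher. At an unadjusted p under 0.05 there were 1, 3 and 2 of the 15, all higher in the later group, against 11.0%, 13.4% and 9.50% of all probe sets in either direction. Since these contrasts were known when the genes were chosen, nothing is read from these counts. SLC5A3 213164_at and SLC6A6 228754_at were called at 24 h under 4 alternatives that also called more of all features: 1 probe set per gene (0.465% called), dim probe sets filtered out (1.07%), no replicate 2 at 4 h (0.460%) and a pseudocount of 64 (2.20%). SLC6A6 228754_at was called between the times with a pseudocount of 64 (0.359%). Nothing is read from these calls either.

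Without overlap, 1 of the 15 was higher at 4 h, 3 were higher at 24 h and 2 were higher at 24 h than at 4 h, where 9.47%, 11.2% and 6.08% of all probe sets were; none was lower in any comparison, against 6.64%, 9.84% and 7.34%. The median difference over the 15 was 0.20 at 4 h and 0.23 at 24 h, beside 0.03 and 0.02 over all probe sets. Between the times it was 0.01, beside -0.01. The 24 h median is the value of SLC6A6 228756_at, which averaged 8.76 and cannot be told from background. Of the 15, 5 had a mean below 16, and several belong to the same gene. Nothing is read from these counts and medians.

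The other genes of osmotic and volume regulation were taken from 10 lists chosen by function with earlier results of these data known. Of their 101 genes 91 had a probe set of their own. The 91 include MRPS6, which formed a list by itself as the host gene of SLC5A3. Each gene was read from its brightest probe set. None of the 91 passed in any comparison (limma adjusted p of at least 0.245 at 4 h, 0.0994 at 24 h and 0.237 between the times), where 0.0303%, 0.0809% and 0.0455% of all genes did. At an unadjusted p under 0.05, 9 were higher and 2 lower at 4 h, 9 and 10 at 24 h, and 4 and 10 between the times, against 11.5%, 14.8% and 10.5% of all genes in either direction. Without overlap, 13 were higher and 7 lower at 4 h (9.37% and 8.14% of all genes), 11 and 17 at 24 h (12.8% and 12.2%), and 3 and 11 between the times (7.35% and 7.85%). The median over the 91 was 0.05 at 4 h and -0.06 at 24 h, beside 0.01 and 0.01 over all genes, and 31 of the 91 had a mean under 16.

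Of 11 measured targets of NFAT5 or of hypertonicity, none passed, and 6 had a mean under 16. The list medians, 0.08 at 4 h and -0.22 at 24 h, are the values of CCL2, which is 1 of those 6, and so describe readings near background. SLC38A2, the amino acid transporter SNAT2, which hypertonicity induces, read 1899, 1823.2 and 1817.4 untreated, 2560.7, 2162.2 and 2770 at 4 h, and 2716.6, 2851.6 and 2720.7 at 24 h. All treated arrays lay above the untreated ones, with differences of 0.43 ± 0.13 SE (limma adjusted p = 0.255) and 0.58 ± 0.13 SE (limma adjusted p = 0.0994), and its other 2 probe sets had the same sign. HSPA4L, an osmotic stress chaperone, averaged 76.0 ± 19.5, 74.5 ± 6.7 and 91.6 ± 10.1 and its groups overlapped (limma adjusted p = 0.996 and 0.585 against untreated). SGK1, a kinase that hypertonicity and glucocorticoids induce, was picked out after its values were seen, as a bright target that differed the other way at 24 h. It averaged 716 ± 33 untreated, 766 ± 127 at 4 h and 498 ± 34 at 24 h. Its 24 h arrays lay below all untreated ones (-0.51 ± 0.15 SE, limma adjusted p = 0.163) and all 4 h ones (-0.59 ± 0.15 SE, limma adjusted p = 0.237). S100A4, likewise picked out afterwards, was lower at 4 h without overlap (-0.38 ± 0.20 SE, limma adjusted p = 0.55). At 24 h S100A4 differed by -0.31 ± 0.20 SE with overlap (limma adjusted p = 0.573).

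Among 7 other carriers of osmolytes and their precursors, SLC6A8, the creatine transporter, had the smallest p at 24 h. It averaged 425 ± 26 untreated, 374 ± 61 at 4 h and 305 ± 32 at 24 h, when its arrays lay below all untreated ones (log2 difference -0.46 ± 0.15 SE, limma adjusted p = 0.21); its other 2 probe sets were nearer 0, at -0.08 and -0.06. Of 17 enzymes that make or break down osmolytes, CHKA, choline kinase alpha, led at 24 h with 75.3 ± 8.2 untreated, 93.1 ± 14.8 at 4 h and 130 ± 21 at 24 h (0.67 ± 0.16 SE, limma adjusted p = 0.113). CHKA arrays at 24 h did not overlap with untreated ones, nor did those of its other probe set, whose difference was 0.27 ± 0.19 SE.

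The other 4 LRRC8 subunits, which join LRRC8A in the channel and set its substrates, did not pass. LRRC8D averaged 247 ± 27, 264 ± 22 and 277 ± 0.49 in the untreated, 4 h and 24 h groups (limma adjusted p = 0.854 and 0.652 against untreated). LRRC8B averaged 24.5 ± 5.7, 38.0 ± 7.8 and 22.6 ± 3.2, with its 4 h arrays above both other groups (limma adjusted p = 0.371 against untreated). Its other 2 probe sets had the opposite sign at 4 h but averaged 7.19 and 7 over all arrays, near background. LRRC8C averaged 108 ± 24, 133 ± 7 and 105 ± 19, and LRRC8E 85.3 ± 13.7, 86.2 ± 26.7 and 77.2 ± 32.1, with overlap between treated and untreated arrays in both. The other LRRC8E probe set, about as bright, read 76.8, 69.7 and 75.9 untreated and 96.3, 104.7 and 85.9 at 4 h, without overlap (0.31 ± 0.12 SE, limma adjusted p = 0.393), and 76.6, 67.6 and 71.2 at 24 h. The second brightest of 5 LRRC8C probe sets also lay above untreated at 4 h without overlap (0.53 ± 0.21 SE, limma adjusted p = 0.386). At 24 h it differed by 0.56 ± 0.21 SE with overlap (limma adjusted p = 0.274). The third LRRC8C probe set, about as bright as the second, had the opposite sign at both times (-0.09 ± 0.13 SE and -0.20 ± 0.13 SE).

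Of 19 ion transporters and their kinases none passed, 10 lying above 0 at each time. ATP1B1, a beta subunit of the sodium pump, averaged 773 ± 103, 1146 ± 199 and 1185 ± 144, all treated arrays being above the untreated ones (0.55 ± 0.17 SE, limma adjusted p = 0.266, and 0.61 ± 0.17 SE, limma adjusted p = 0.161); its other probe set differed by 0.06 and 0.25. SLC12A2, the cotransporter NKCC1 that loads shrunken cells with chloride, averaged 89.2 ± 11.5, 102 ± 3 and 114 ± 13 without overlap between treated and untreated arrays (0.18 ± 0.13 SE, limma adjusted p = 0.698, and 0.30 ± 0.13 SE, limma adjusted p = 0.372). Of 8 aquaporins AQP11 had the smallest p at 24 h and was the 1 gene with a mean of 16 or more; it averaged 36.1 ± 9.2 untreated, 20.0 ± 3.6 at 4 h and 26.0 ± 2.8 at 24 h. Its treated arrays lay below the untreated ones at 4 h (-0.52 ± 0.15 SE, limma adjusted p = 0.248) and at 24 h (-0.30 ± 0.15 SE, limma adjusted p = 0.451), and with an array left out the 24 h value ran from -0.40 to -0.16, the latter without untreated replicate 2. Of 9 sensors TMEM63B, a mechanosensitive channel, had the smallest p at 24 h (138 ± 20 untreated and 91.1 ± 7.3 at 24 h, limma adjusted p = 0.194). Of 11 proteins reported to act on NFAT5, PLCG1 led with 166 ± 25 untreated, 255 ± 46 at 4 h and 233 ± 24 at 24 h (limma adjusted p = 0.245 and 0.268), and its other probe set had the opposite sign. The 4 calcineurin-regulated NFAT genes differed from untreated by between -0.10 and -0.06 at 24 h, NFATC3 having the smallest p (limma adjusted p = 0.901). The other 5 probe sets of NFATC3 had the opposite sign, from 0.05 to 0.21, and NFATC2 and NFATC4 had a mean under 16.

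**Figure D4:**
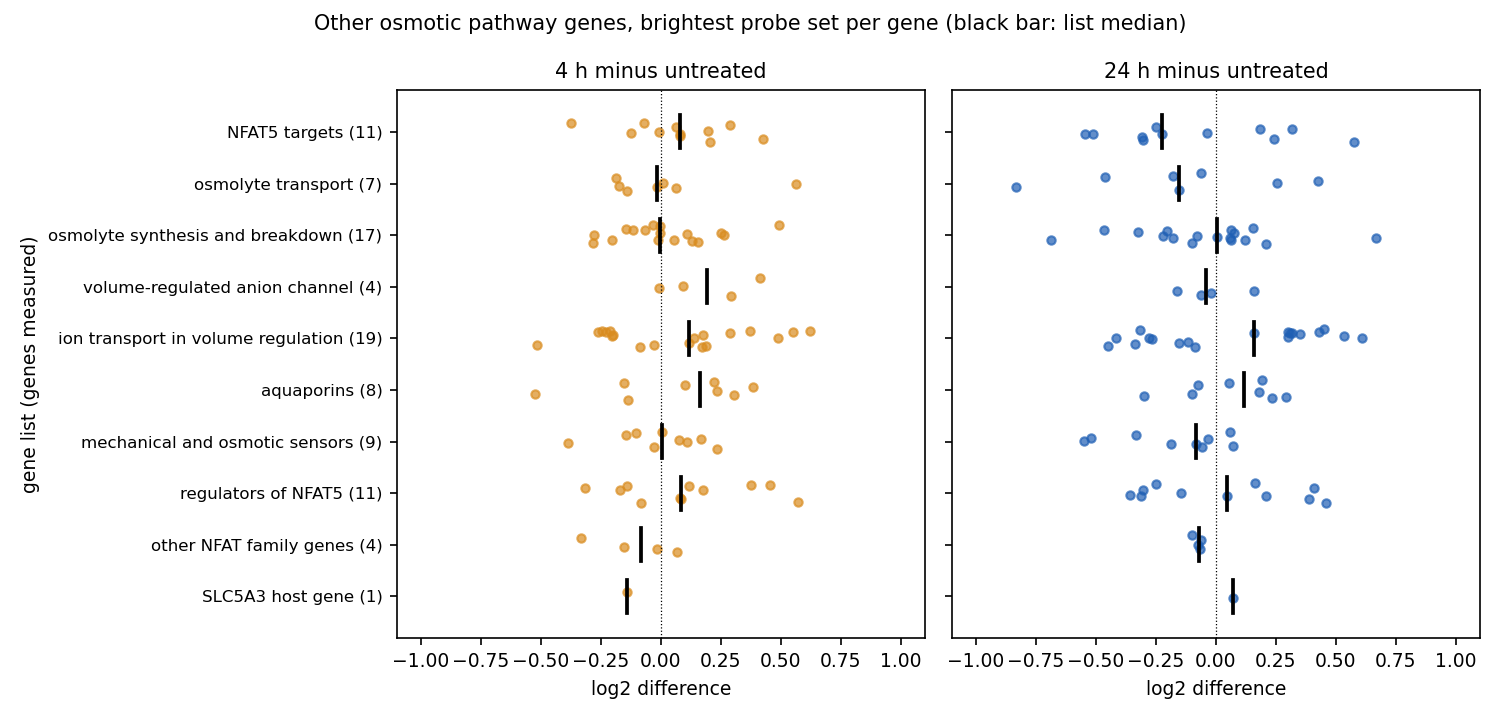
Log2 difference of each of the 91 listed genes (points, brightest probe set) by list at 4 h and 24 h minus untreated. Black bars are list medians, and brackets give the number of genes measured. MRPS6, the host gene of SLC5A3, is among the 91. No point passed the test, and 31 of the 91 genes, among them 6 of 11 NFAT5 targets and 7 of 8 aquaporins, had a mean intensity under 16, so that medians of those lists describe readings near background.

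The genes most like each member in their pattern were found by Pearson's r of the log2 values over the 9 arrays, among about 9900 genes with a mean intensity of at least 32. For SLC5A3 213164_at these were FICD (r = 0.988), NCAM1 (r = 0.987) and SLC38A1 (r = 0.986), an amino acid transporter that averaged 464 untreated, 659 at 4 h and 754 at 24 h. For SLC6A6 228754_at they were TUSC1 (r = 0.971), MTFR2 (r = 0.968) and OPTN (r = 0.967). For NFAT5 224984_at they were PAXBP1, RAB33B and ZNF84 (r = 0.91 to 0.872), for LRRC8A 224624_at NTMT1, FRMD8 and SNX17 (r = 0.942 to 0.909), and for SLC6A12 VPS41, TSC22D3 and SLC48A1 (r = 0.971 to 0.924). Each is the highest of many correlations over few arrays that share treatment and scaling, and is a description. The SLC6A12 readings cannot be told from background, so the genes listed for it match a pattern near background.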

How the data were processed

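RNA from 9 samples was hybridised to 1-colour Affymetrix arrays, and sample titles gave the groups and replicate numbers. The deposited values are linear intensities, 1 per probe set and array, and each array had a mean of 100 after trimming 2% at each end, which removes any change in total messenger RNA. The submitters' processing notes name R 2.9.2 and RMA with no role, and how probes were summarised is not given here. The number of arrays limits the precision, and background correction and slide could not be varied.

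After 62 control probe sets were left out, 54613 remained, 41091 with 1 gene name, 1801 with several and 11721 unlisted in the annotation. Of the first class 41037 matched RefSeq by Entrez identifier. Values were analysed as log2(intensity + 16) with no filter. One model of 3 group means used all arrays (lmFit and eBayes of limma 3.58.1, R 4.3.3), with Benjamini-Hochberg adjustment over all probe sets at 0.05, two-sided. It was tested first on simulated data with 200 changed probe sets per comparison. There it called 0% to 1.49% of log2 changes of 0.5, 37.3% to 44.8% of those of 1 and 84.8% to 90.9% of those of 2. Not passing therefore says little about log2 differences of 1 or less. Probe sets below that percentile, among them 3 of the 15 members, were given no change, so these shares do not describe them. Array measures were compared with exact permutation tests (SciPy 1.17.1).

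The members and lists were chosen with earlier results of these data known. Named were all members, the pathway genes past the threshold (or, in a list with none, that with the smallest p at 24 h), MRPS6, HSPA4L, SLC38A2, SLC12A2, the LRRC8 subunits, and the 3 genes most like each member. Nothing in the labels says that replicates came from separate cultures, though the design text calls them biological. Alternatives were the pseudocount (1 and 64), a filter at the 40th percentile, quantile normalization, median centring, the compared groups alone, a replicate block, 1 probe set per gene, the mean over probe sets, and leaving out each array.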

Additional observations from a re-analysis of the deposited data

How the results depend on the processing

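The count of members called at 24 h, 0 in the reported fit, was 2 with a pseudocount of 64, with probe sets under the 40th percentile removed and with 1 probe set per gene, and between 0 and 2 when an array was left out, 2 without replicate 2 at 4 h. Between the times it was 1 with a pseudocount of 64. At 4 h it was 0 under every alternative run. Of the 91 pathway genes 2, SLC38A2 (limma adjusted p = 0.017) and CHKA (limma adjusted p = 0.044), passed at 24 h with a pseudocount of 64 and none under the other alternatives. With that pseudocount 2.20% of all probe sets passed at 24 h, and nothing is read from these 2 calls. The replicate block called 0 members and 0 pathway genes. Correlations of deviations from group means lay between -0.0639 and 0.0907 in 9 same-numbered pairs and between -0.059 and 0.111 in 18 others. Same-numbered arrays of the 4 h and 24 h groups gave 0.0449, 0.0491 and 0.0907, while differently numbered arrays of these groups gave negative values. Deviations sum to 0 within a group, so these negative values are no separate observation. Same-numbered pairs with an untreated array had both signs. What arrays of the same number shared was not tested. The numbers of all probe sets called at 4 h, at 24 h and between the times were 7, 29 and 14. They were 0, 0 and 2 with a pseudocount of 1; 338, 1204 and 196 with 64; 85, 349 and 27 with the filter; 0, 0 and 2 with the compared groups alone; 1, 0 and 3 with the replicate block; and 49, 92 and 28 with 1 probe set per gene. Median centring gave 4 at 4 h and, at 24 h, 6 higher and 25 lower, where the reported fit gave 9 and 20 and quantile normalization 7 and 13. Leaving out an array gave 0 to 5, 0 to 251 and 2 to 4, the 251 being without replicate 2 at 4 h; at 24 h none was called without untreated replicate 2 or 3 or any 1 of the 24 h arrays. The cause was not tested, beyond that filters and 1 probe set per gene test fewer features. SLC5A3 213164_at ranged from 0.54 to 0.82 at 4 h and 0.85 to 1.00 at 24 h, and SLC6A6 228754_at from 0.77 to 0.93 at 24 h, when an array was left out. Among single member values, none called when reported, 9 of 336 under these settings and 26 of 405 with an array left out had the opposite sign to that reported. Values near or below 16 cannot be told from background.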
